A study of Homo sapiens with 9 samples.

Results

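Poly(A)-selected RNA of PERK knockout and wild-type U2OS cells, all on palbociclib, was compared gene by gene. U2OS is an established human osteosarcoma line, and the knockout derivative was made in it with CRISPR/Cas9. The comparison used 6 of the 9 libraries of the study, picked by their genotype and treatment labels: 3 of genotype PERK KO and 3 of genotype WT, both after 4 days of the drug. Each group has libraries from sets 1, 2 and 3. The remaining 3 libraries are wild-type cells on vehicle, whose levels are given beside some results. The labels do not say whether the knockout is 1 clone or a pool, nor whether the sets are separate cultures, so the p-values cover only the spread among these libraries, and that spread may be technical. A vehicle-treated knockout group was not analysed here. The differences below are therefore differences between genotypes on the drug, and whether the response to the drug differed between genotypes was not tested.

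PERK, the product of EIF2AK3, sits in the membrane of the endoplasmic reticulum (ER) and is activated when unfolded proteins collect in the lumen. It phosphorylates the translation factor eIF2α, which slows general protein synthesis while mRNAs such as that of ATF4 are translated more. ATF4 is a transcription factor that, with C/EBP partners, turns on genes for amino acid synthesis and uptake, tRNA charging and stress signalling, and the other 3 eIF2α kinases can start the same programme. Palbociclib inhibits CDK4 and CDK6, which keeps the retinoblastoma protein bound to E2F factors and holds cells in G1.

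Of 19408 genes tested, 5419 (27.9%) differed between the genotypes, 2896 (14.9%) higher and 2523 (13.0%) lower in the knockout. A gene was called at an adjusted p under 0.05 (edgeR quasi-likelihood test, Benjamini-Hochberg adjustment over all tested genes). At least 2-fold differences were called for 234 genes (1.21%) higher and 351 (1.81%) lower. Among protein-coding genes, which make up most of the lists below, 33.8% were called. The ranges of the 3 knockout and 3 wild-type libraries did not overlap for 8021 genes (41.3%), so a gene without overlap is common here. The median log2 fold change of all tested genes was 0.01, with 5th and 95th percentiles of -0.64 and 0.65. Levels below are CPM (read counts scaled to a common library total with TMM factors), listed in the order of sets 1, 2 and 3, and every log2 fold change is knockout against wild type on palbociclib with its SE. A stretch is called shifted, higher or lower, where the median log2 fold change of a 10 Mb window passed 0.25 in that direction. In such bulk libraries, fewer cells of a kind and less RNA per cell cannot be told apart.

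EIF2AK3 itself, at chr2:88556741-88627576 on the minus strand of hg38, was measured at 35.7, 36.8 and 31.8 CPM in the wild type and 19.7, 18.7 and 17.8 CPM in the knockout. All 3 knockout libraries were below all wild-type libraries, and their mean was 53.9% of the wild-type mean (log2 fold change -0.89 ± 0.07, edgeR adjusted p = 5.98e-09). The mRNA was therefore lower but not lost, and counts over the whole gene do not show whether it codes for protein. On vehicle the wild-type libraries stood at 31.7, 34.8 and 32.8 CPM. Of 35 other tested genes within 3 Mb of EIF2AK3, 4 were lower, and the median over all of them was -0.13. The lower ones were VAMP8, a membrane fusion protein (-1.70), the histone demethylase KDM3A (-0.45), RNF103 (-0.30) and RPIA (-0.19).

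Among the other eIF2α kinases, EIF2AK1 (the kinase HRI, which senses haem and mitochondrial stress) was higher. It was measured at 465, 467 and 446 CPM in the wild type and 559, 561 and 548 CPM in the knockout, without overlap (log2 fold change 0.28 ± 0.05, edgeR adjusted p = 9.79e-05). EIF2AK2 (PKR, activated by double-stranded RNA) had a log2 fold change of -0.02 (adjusted p = 0.789) and EIF2AK4 (GCN2, the sensor of uncharged tRNA) of 0.11 (adjusted p = 0.15). The latter passed the test with the set as a block (adjusted p = 0.0237). Of the 17 genes of the eIF2α kinases, phosphatase subunits and eIF2 machinery, 5 were higher and 4 lower, with a median of 0.02; the count of higher genes was 3 when any 1 of the wild-type libraries or knockout library 1 was left out. EIF2B2, a subunit of the exchange factor that recharges eIF2, rose by 0.54, and EIF2S2, the β subunit of eIF2, had a log2 fold change of -0.37. The phosphatase subunits that bring protein phosphatase to eIF2α were both lower, PPP1R15B (the constitutive one) at -0.23 and PPP1R15A (GADD34, the induced one) at -0.22. The call for PPP1R15A was lost without wild-type library 1 or 2 or knockout library 1 or 2 (adjusted p = 0.0544 to 0.101).

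Where genes that ATF4 and its partners switch on differed, most were lower in the knockout. Over the 4 role lists of this response, which are transcription factors and feedback genes, secreted factors, amino acid enzymes, and amino acid transporters, 32 of 62 measured members fell and 5 rose, with a median of -0.26 against 0.01 over all genes. The median of these 62 genes in each library, relative to the wild-type palbociclib mean, was -0.04, 0.00 and 0.05 in the wild type and -0.27, -0.19 and -0.24 in the knockout on the log2 scale. It was -0.01, -0.08 and -0.07 in the wild type on vehicle, so for the joined genes the knockout libraries were below the wild-type libraries of both treatments. For the amino acid enzymes alone the medians overlapped with vehicle. They were -0.15, -0.06 and -0.13 in the knockout and -0.05, -0.08 and -0.16 on vehicle. With any 1 of the 6 libraries left out, 31 to 33 members fell, and with the set as a block 38 fell.

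The feedback genes TRIB3 and CHAC1 moved most among the transcription factors and feedback genes, of which 8 of 17 fell and 1 rose (median -0.26; 13 fell with the set as a block). TRIB3, a pseudokinase that ATF4 induces and that dampens its activity, was measured at 26.9, 32.6 and 33.1 CPM in the wild type and 13.6, 13.98 and 15.7 CPM in the knockout (log2 fold change -1.10 ± 0.08, edgeR adjusted p = 3.04e-09). CHAC1, an enzyme that degrades glutathione, at chr15:40952962-40956519, was measured at 18.2, 20.98 and 21.3 CPM in the wild type and 8.797, 9.82 and 10.1 CPM in the knockout (log2 fold change -1.07 ± 0.09, edgeR adjusted p = 1.56e-08). For both genes every knockout library lay below every wild-type library. TRIB3 lies in a stretch of chromosome 20 in which most genes were lower, while CHAC1 lies in no shifted stretch. The C/EBP partners CEBPB (-0.40) and CEBPG (-0.34) fell too, as did ATF5 (-0.29), JDP2 (-0.27) and NUPR1 (-0.26), the last in a higher stretch of chromosome 16. The mRNA of ATF4, which is controlled mainly in translation, was measured at 610.5, 603 and 638 CPM in the wild type and 531, 548 and 561 CPM in the knockout (log2 fold change -0.17 ± 0.05, edgeR adjusted p = 0.00735). DDIT3 (CHOP, a factor of prolonged stress) had a log2 fold change of -0.34 with an adjusted p of 0.0838, and ATF3 of -0.16 with an adjusted p of 0.132; neither was called, and both were with the set as a block (adjusted p = 0.0128 and 0.038). Of the exon bases of DDIT3, 39.6% also belong to exons of another gene, so its counts are uncertain. BATF3, an AP-1 partner, was the member that rose (0.39).

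Stress-induced secreted factors, listed together with the death receptor TNFRSF10B, were lower in the knockout where they differed. Among 11 measured, 7 fell and none rose in the edgeR test, with a median of -0.45 (0 rose at an unadjusted p under 0.05, with DESeq2 or with limma-voom, and 1 rose with the set as a block or without wild-type library 2). INHBE, the inhibin βE chain that forms activin E, at chr12:57452323-57459280, was measured at 5.81, 6.09 and 7.18 CPM in the wild type and 1.19, 1.502 and 1.23 CPM in the knockout (log2 fold change -2.29 ± 0.15, edgeR adjusted p = 7.58e-10). FGF21, an endocrine hormone of fasting and mitochondrial stress, was measured at 3.48, 5.26 and 5.97 CPM in the wild type and 0.721, 1.44 and 1.28 CPM in the knockout (log2 fold change -2.11 ± 0.25, edgeR adjusted p = 2.6e-05). Neither gene overlapped between genotypes, and the knockout levels of INHBE were also below those on vehicle (3.27, 3.74 and 3.61 CPM). STC2, a stanniocalcin, had a log2 fold change of -1.24 and the peptide hormone ADM2 of -0.45. VEGFA, the angiogenic factor, which hypoxia also induces, was measured at 62.3, 65.3 and 83.7 CPM in the wild type and 38.3, 41.3 and 49.5 CPM in the knockout (log2 fold change -0.71 ± 0.14, edgeR adjusted p = 0.00828). STC1 (-0.45) and the death receptor TNFRSF10B (-0.21) were lower as well, in a stretch of chromosome 8 where most genes were lower. GDF15, a stress cytokine, had a log2 fold change of -0.13 and was not called (adjusted p = 0.694). After subtraction of the median of each gene's 10 Mb neighbourhood the median of the list was -0.12.

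Enzymes that make amino acids and one-carbon units under ATF4 were lower in part: 8 of 19 fell and 2 rose, with a median of -0.07 (-0.13 after subtraction of the neighbourhood). ALDH1L2, the mitochondrial enzyme that turns formyl-tetrahydrofolate into tetrahydrofolate, was measured at 44.7, 44.3 and 46.6 CPM in the wild type and 14.1, 18.5 and 16.6 CPM in the knockout (log2 fold change -1.46 ± 0.08, edgeR adjusted p = 4.33e-11). CTH, which makes cysteine from cystathionine, was measured at 18.98, 19.2 and 22.4 CPM in the wild type and 9.17, 8.98 and 9.89 CPM in the knockout (log2 fold change -1.11 ± 0.08, edgeR adjusted p = 5.92e-09). Both were far below the wild-type range in all 3 knockout libraries. GPT2, a mitochondrial alanine aminotransferase, fell by 0.57, the serine pathway enzyme PSAT1 by 0.48 and PSPH by 0.22 on the log2 scale. ASNS, which makes asparagine, had a log2 fold change of -0.53 (adjusted p = 0.00999) and MTHFD2 of -0.40, and 44.6% and 33.2% of their exon bases are shared with another gene. PHGDH, the first enzyme of serine synthesis, had -0.07 and was not called (adjusted p = 0.339). The members that rose, PYCR1 (0.21) and CBS (0.27), lie in higher stretches of chromosomes 17 and 21, and the call for CBS was lost without wild-type library 1 (adjusted p = 0.0803) or knockout library 3 (0.118).

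Amino acid transporters fell in 9 of 15 cases and rose in 2, with a median of -0.26. SLC6A9, a glycine transporter, was measured at 40.7, 38.1 and 38.1 CPM in the wild type and 23.9, 24.1 and 22.2 CPM in the knockout (log2 fold change -0.73 ± 0.07, edgeR adjusted p = 7.03e-08). SLC7A5, the light chain of the LAT1 carrier of leucine and other large neutral amino acids, was measured at 645, 613 and 617 CPM in the wild type and 421, 440.3 and 421 CPM in the knockout (log2 fold change -0.55 ± 0.06, edgeR adjusted p = 7.22e-07), and its heavy chain SLC3A2 had a log2 fold change of -0.34. The ranges did not overlap for either of these transporters. The neutral amino acid carriers SLC1A4 (-0.43) and SLC1A5 (-0.39), SLC38A1 (-0.34), the arginine and lysine carrier SLC7A1 (-0.27) and the cystine carrier SLC7A11 (-0.26) were lower by less. SLC6A6, a taurine transporter (0.46), and SLC7A3 (0.85) rose, and each lost its call when either of 2 libraries was left out. None of the 15 transporters lies in a shifted stretch.

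Cytosolic aminoacyl-tRNA synthetases, which load amino acids onto tRNAs, were divided. Of 18 measured, 8 fell and 3 rose, with a median of -0.14. SARS1 (seryl, -0.28), TARS1 (threonyl, -0.25) and AARS1 (alanyl, -0.23) fell, and NARS1 (asparaginyl, -0.44) fell in a lower stretch of chromosome 18. QARS1 (glutaminyl) went the other way, at 307, 295 and 308 CPM in the wild type and 419, 438 and 429 CPM in the knockout (log2 fold change 0.50 ± 0.05, edgeR adjusted p = 6.03e-08). All 3 knockout libraries were above the wild-type range. HARS1 (0.30) and LARS1 (0.29) rose in a higher stretch of chromosome 5. Of 15 mitochondrial synthetases, 4 rose and 1 fell (33.3% called, close to the 33.8% of protein-coding genes), with a median of 0.01.

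**Figure D1:**
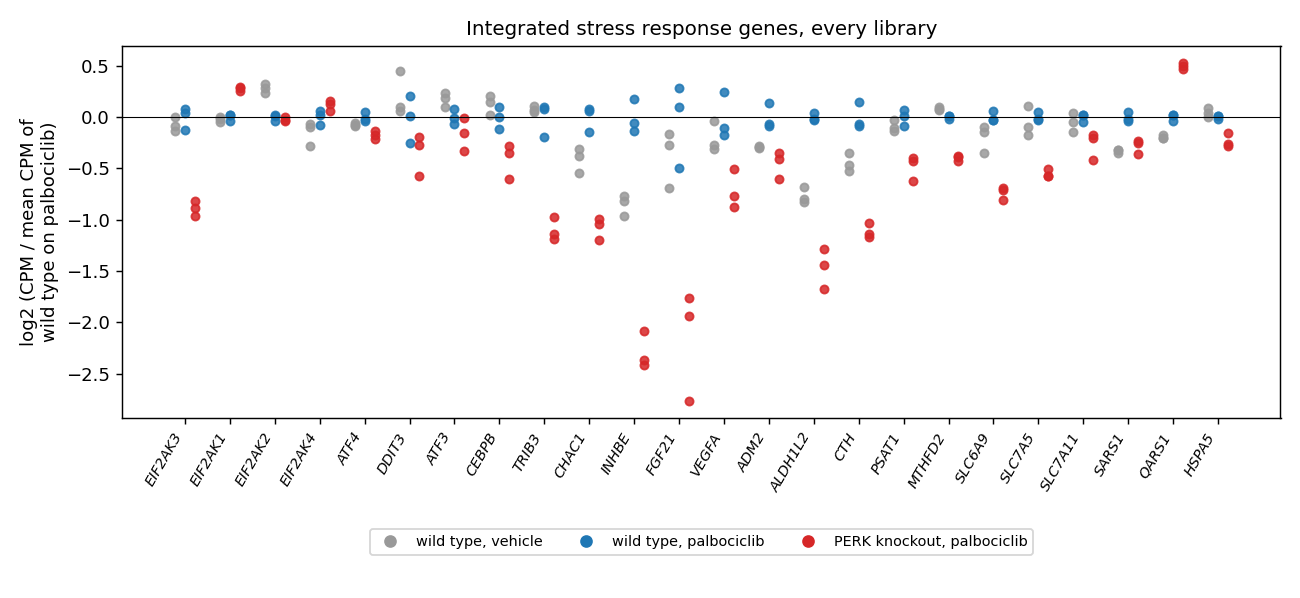
Level of stress-response genes in each library (points), as the log2 ratio of its CPM to the mean CPM of the wild type on palbociclib. Grey points are the wild type on vehicle, blue the wild type on palbociclib and red the PERK knockout on palbociclib, 3 libraries each; the red points of EIF2AK3, TRIB3, CHAC1, INHBE, FGF21, ALDH1L2 and CTH lie below all blue points, and those of EIF2AK1 and QARS1 above.

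The C/EBP-ATF response element (CARE), TGATGNAAN on either strand, was looked for in the promoters of these genes because it is the site that ATF4 binds with a C/EBP partner. Promoters are the RefSeq windows of GRCh38.p14, from before to shortly after each start site, and 43 of the 62 members had one. Of these, 10 (23.3%) held the letters, against 3.67% of all 27305 promoters and 1.9% of the 12374 promoters of tested genes. Members with the letters had a median log2 fold change of -0.30 and 6 of 10 fell; the 33 without had a median of -0.26 and 17 fell. The sites of 3 of the 6 that fell, of 1 that was not called (ATF3) and of AARS1, a synthetase gene that fell and is not among the 62, are shown, with the 9 matched letters in capitals, to set the sequences beside the levels above: CHAC1 chr15:40953245-40953285 (plus strand), FGF21 chr19:48755453-48755493 (plus), ASNS chr7:97872452-97872492 (minus), AARS1 chr16:70289670-70289710 (minus) and ATF3 chr1:212565200-212565240 (plus).
CHAC1: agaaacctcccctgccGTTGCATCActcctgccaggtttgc
FGF21: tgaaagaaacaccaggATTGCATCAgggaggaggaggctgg
ASNS: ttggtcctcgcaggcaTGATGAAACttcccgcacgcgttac
AARS1: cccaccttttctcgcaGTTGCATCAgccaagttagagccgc
ATF3: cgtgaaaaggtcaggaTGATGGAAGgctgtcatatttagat
The same letters were found at GOT1, BCAT1 and MTHFD1L, whose log2 fold changes of 0.11, -0.01 and -0.05 were not called. A match is a description of the sequence and does not show binding.

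Genes of ATF6 and IRE1, the remaining ER stress sensors, were divided. Of 20 ATF6-arm genes and ER chaperones, 5 rose and 3 fell, with a median of 0.00. HSPA5 (BiP, the main ER chaperone) was measured at 908, 909.9 and 892 CPM in the wild type and 742, 813 and 752 CPM in the knockout (log2 fold change -0.23 ± 0.05, edgeR adjusted p = 0.00114), and XBP1, the factor that IRE1 activates by splicing, at 131, 133 and 128 CPM in the wild type and 105, 111 and 114 CPM in the knockout (log2 fold change -0.25 ± 0.05, edgeR adjusted p = 0.00045). Both were lower without overlap. ATF6 itself fell by 0.97 on the log2 scale and lies in the lower stretch of chromosome 1. CANX, the membrane chaperone calnexin, was measured at 24.3, 26.7 and 21.2 CPM in the wild type and 37.9, 38.4 and 36.9 CPM in the knockout (log2 fold change 0.65 ± 0.08, edgeR adjusted p = 2.69e-06), and the cochaperones CRELD2 (0.25) and SDF2L1 (0.23) rose. SEL1L (0.27) and P4HB (0.28) rose in higher stretches of chromosomes 14 and 17. Of 26 IRE1 and XBP1s targets, 3 rose and 6 fell, with a median of -0.06. The share called, 34.6%, was close to the 33.8% of protein-coding genes. With the set as a block 10 fell, and without wild-type library 2 only 3 fell. SEC23B, a COPII coat subunit (-0.50), fell most and lies in a lower stretch of chromosome 20, and SRPRB, the signal recognition particle receptor β (-0.30), came next. ER oxidation and degradation genes had 2 members lower of 15 (13.3% called, below the share of all tested genes), ERP44 (-0.39) and UBE2J1 (-0.27).

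The ER stress element to which ATF6 binds was found in the promoters of 6 of 19 ATF6-arm genes (31.6%), 0 of 23 IRE1 targets, 0.0806% of all promoters and 0.137% of the promoters of tested genes. HSPA5 and XBP1, which fell, and CANX and CRELD2, which rose, share it with HSP90B1 (-0.13) and CALR (-0.12), which were not called. The sites of HSPA5, XBP1 and CANX are shown with the element in capitals: HSPA5 chr9:125241375-125241425 (minus strand), XBP1 chr22:28800587-28800637 (minus) and CANX chr5:179698762-179698812 (plus), from RefSeq, GRCh38.p14.
HSPA5: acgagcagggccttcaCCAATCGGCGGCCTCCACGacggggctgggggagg
XBP1: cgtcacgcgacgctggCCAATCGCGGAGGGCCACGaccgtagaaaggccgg
CANX: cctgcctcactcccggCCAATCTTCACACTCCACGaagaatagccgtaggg

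Genes for DNA replication and S phase were higher in the knockout. Of 53 measured, 31 rose and 3 fell, with a median of 0.18 (0.21 after subtraction of the neighbourhood). The count of genes that rose was 18 without wild-type library 3 and 18 without knockout library 2. In each library the list's median, relative to the wild-type palbociclib mean, was 0.66, 0.64 and 0.60 on vehicle, 0.04, 0.06 and -0.09 in the wild type on the drug and 0.23, 0.26 and 0.09 in the knockout. The knockout libraries thus lay above the wild-type libraries on the drug and below those on vehicle.

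MCM5, a subunit of the replicative helicase, rose most. It was measured at 175, 172 and 162 CPM in the wild type and 293, 309 and 278 CPM in the knockout, against 261, 257 and 233 CPM on vehicle (log2 fold change 0.79 ± 0.05, edgeR adjusted p = 1.85e-09). The knockout levels were above both wild-type groups. The other helicase subunits MCM2 (0.18), MCM3 (0.33), MCM4 (0.33), MCM6 (0.26) and MCM7 (0.13) rose by less. The nucleotide enzymes TK1 (0.42) and DUT (0.42), the licensing factor CDT1 (0.36), the Fanconi anaemia gene FANCD2 (0.42) and E2F1 (0.17) rose. BRCA1 (0.54) and the loading factor CDC6 (0.48) rose in a higher stretch of chromosome 17. PCNA, the polymerase clamp, was lower (-0.35) and lies in a lower stretch of chromosome 20, while E2F7, a repressor E2F, was lower (-0.24) outside any shifted stretch.

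E2F sites, searched on both strands as TTTGGCGC, TTTCCCGC, TTTGCCGC or TTTCGCGC, were found in 22 of 45 replication promoters (48.9%), 3 of 40 promoters of G2 and mitosis genes (7.5%), 3.33% of all promoters and 4.87% of the promoters of tested genes. The share of replication promoters was 31.1% when only bases before the start site were searched, against 2.79% of all promoters. The sites of MCM6 and MCM3, which rose, and of PCNA, which was lower, are printed with the matched letters in capitals. PCNA lies in a window of chromosome 20 whose median was -0.57, so its -0.35 was above that of its neighbourhood. Both MCM6 sites match on both strands with overlap. Positions are MCM6 chr2:135876572-135876611 and chr2:135876510-135876549, MCM3 chr6:52284893-52284932 and PCNA chr20:5126658-5126697, all on the minus strand (RefSeq, GRCh38.p14).
MCM6, first site: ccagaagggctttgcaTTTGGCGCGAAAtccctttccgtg
MCM6, second site: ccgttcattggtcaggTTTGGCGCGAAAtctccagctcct
MCM3: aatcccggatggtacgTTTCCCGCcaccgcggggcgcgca
PCNA: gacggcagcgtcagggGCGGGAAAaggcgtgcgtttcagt

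Genes of G2 and mitosis did not share this rise. Of 46 measured, 3 were higher and 7 lower (21.7% called, below the share of all tested genes), with a median of -0.06. NUF2, a kinetochore protein (-0.77), and the phosphatase CDC25B (-0.65) fell most and lie in lower stretches of chromosomes 1 and 20. CENPE, a kinetochore motor (-0.44), fell outside any, and MKI67 (Ki-67) was measured at 461, 429 and 385 CPM in the wild type and 582, 539 and 490.5 CPM in the knockout (log2 fold change 0.34 ± 0.08, edgeR adjusted p = 0.00735). The lower count was 14 without knockout library 1, 12 without wild-type library 3, 4 without wild-type library 2 or knockout library 2, and 16 with the set as a block. The median was -0.14 without knockout library 1 and 0.02 without knockout library 3. The list's medians per library were 0.10, 0.05 and -0.15 in the wild type and 0.09, -0.05 and -0.22 in the knockout, so the ranges overlapped.

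**Figure D2:**
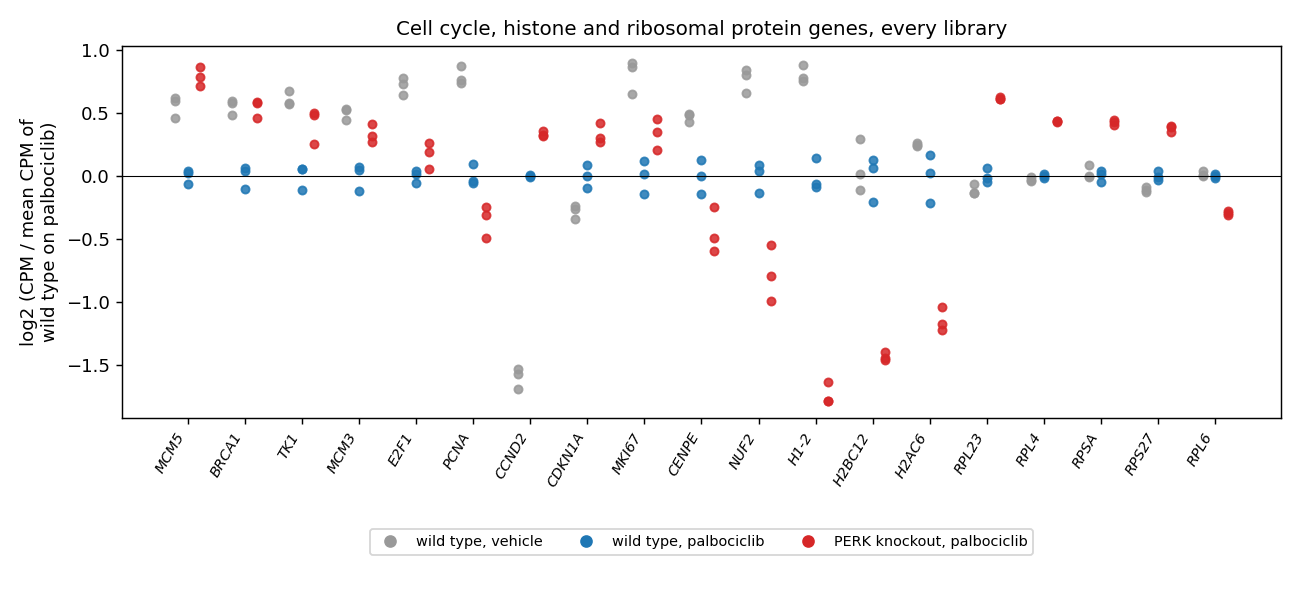
Level of cell cycle, histone and ribosomal protein genes in each library (points), as the log2 ratio of its CPM to the mean CPM of the wild type on palbociclib, with 3 libraries each of the wild type on vehicle (grey), the wild type on palbociclib (blue) and the PERK knockout on palbociclib (red). MCM5 was higher in the knockout than in both wild-type groups, and H1-2 and H2BC12 were lower than in both.

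Cyclins, CDKs, their inhibitors and pocket proteins changed in both directions, 7 of 23 higher and 4 lower (median 0.04; 3 or 4 higher without wild-type library 3 or without knockout library 1 or 2). CDKN2B, which encodes the CDK4/6 inhibitor p15INK4B, was near 0 in the knockout and is described with the near-silent genes. CDK6, a target of the drug, fell by 0.23 on the log2 scale, and CDK4, the other target, had 0.10 (adjusted p = 0.0998); 43.2% of its exon bases are shared with another gene. CCND3 (cyclin D3) fell by 0.39, and CCND1 (-0.03, adjusted p = 0.697) was not called. CCND2 (cyclin D2) was measured at 527, 523 and 525 CPM in the wild type and 672, 659 and 653 CPM in the knockout, against 176, 181 and 163 CPM on vehicle (log2 fold change 0.33 ± 0.05, edgeR adjusted p = 2.4e-05). It lies in the higher stretch of chromosome 12. CDKN1A (p21, an inhibitor of cyclin-CDK complexes and a p53 target) was measured at 211, 224 and 198 CPM in the wild type and 254, 283 and 261 CPM in the knockout (log2 fold change 0.33 ± 0.05, edgeR adjusted p = 0.000104). Neither of the last pair overlapped between genotypes. The pocket protein RBL2 (p130) rose by 0.28, and RB1 had -0.10 (adjusted p = 0.259; called without wild-type library 3, 0.0172). CCNE1 (cyclin E1, 0.18) rose, but lost its call without wild-type library 1 or 3 or knockout library 2 (adjusted p = 0.066 to 0.152).

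Listed targets of p53 were mostly higher where they differed: 12 of 27 rose and 1 fell, with a median of 0.13. The 1 that fell was TNFRSF10B (-0.21), which is also counted among the secreted factors above. PMAIP1, which p53 also induces, is not in the list and fell by 0.90 on the log2 scale. It lies in a lower stretch of chromosome 18 and is described below with the BCL2 family. PLK2, a stress-induced kinase, was measured at 184, 172 and 165 CPM in the wild type and 284, 237 and 233 CPM in the knockout (log2 fold change 0.53 ± 0.07, edgeR adjusted p = 5.67e-05). FDXR, a mitochondrial ferredoxin reductase (0.38), the glycolysis regulator TIGAR (0.32), the repair factor DDB2 (0.30) and the phosphatase PPM1D (0.28) rose with CDKN1A, TIGAR in the higher stretch of chromosome 12. After subtraction of the neighbourhood the median was 0.06. The list's medians per library were 0.00, 0.03 and -0.03 in the wild type and 0.02, 0.19 and 0.15 in the knockout, so the ranges overlapped.

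Replication-dependent histone mRNAs went against the replication genes. Of 26 measured, 13 fell and 1 rose, with a median of -0.67 (-0.55 after subtraction of the neighbourhood), and none lies in a shifted stretch. H1-2, a linker histone, was measured at 128, 111 and 109 CPM in the wild type and 37.2, 33.6 and 33.5 CPM in the knockout, against 214, 195 and 198 CPM on vehicle (log2 fold change -1.73 ± 0.06, edgeR adjusted p = 3.64e-13). H2BC12, a core histone, was measured at 171, 164 and 136 CPM in the wild type and 57.5, 59.3 and 57.01 CPM in the knockout (log2 fold change -1.44 ± 0.12, edgeR adjusted p = 2.34e-05). Both were lower in every knockout library than in any wild-type library of either treatment. H2AC6 (-1.14), H2BC4 (-1.92), H2BC11 (-1.53), H4C8 (-1.40) and H3C6 (-3.15) fell too. Histone genes have near-identical copies, so the division of reads between single genes is uncertain. H4C3 rose (1.01), a call lost without wild-type library 2 or 3 or knockout library 1. Most of these mRNAs end in a stem-loop and carry no poly(A) tail, so poly(A) capture measures them only in part, and a change in tail and a change in amount cannot be told apart. Among 11 factors that process the histone 3' end, 4 rose and 1 fell: SLBP, the stem-loop binding protein, rose by 0.19, LSM11 by 0.41 and COIL by 0.31, and ZNF473 fell by 0.27. Of 11 replacement variants, whose mRNAs carry tails, 3 rose, including H2AJ (0.47), and H2AZ1 fell (-0.24).

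Cytosolic ribosomal protein mRNAs rose broadly. Of 72 measured, 62 rose and 1 fell, with a median of 0.27, and 70 had a positive log2 fold change. Away from chromosome 17, 56 of 66 rose with a median of 0.26. RPL4 was measured at 2549, 2521 and 2574 CPM in the wild type and 3436, 3451 and 3454 CPM in the knockout (log2 fold change 0.44 ± 0.05, edgeR adjusted p = 4.31e-07), and RPSA, also the laminin receptor, at 1716, 1791 and 1819.9 CPM in the wild type and 2389, 2345 and 2418 CPM in the knockout (log2 fold change 0.43 ± 0.05, edgeR adjusted p = 1.38e-06). Neither overlapped between genotypes. RPL23 (0.62), RPL27 (0.52) and RPL19 (0.51) rose most, in higher stretches of chromosome 17. RPL6 was the member that fell, from 808, 815 and 827 CPM in the wild type to 666, 659.8 and 673 CPM in the knockout. Ribosomal protein genes took 4.81 to 5.21% of counts in the wild type, 5.88 to 6.06% in the knockout and 4.77 to 5.14% on vehicle.

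The rest of the translation machinery moved less. Of 27 initiation and elongation factors, 11 rose and 2 fell (median 0.10), with EIF3D (0.43), EIF4B (0.33) and EEF1A1 (0.29) higher and the cap-binding protein EIF4E lower (-0.33). Ribosome biogenesis genes went the other way: 9 of 28 fell and 2 rose (median -0.09), among them BYSL, a factor of small subunit assembly (-0.52), and NOP56, a box C/D snoRNP core protein (-0.61, in a lower stretch of chromosome 20). That count was 4 or 5 without wild-type library 1 or 2 or knockout library 2 or 3. Of 71 mitochondrial ribosomal proteins, 20 rose and 6 fell (36.6% called against 33.8% of protein-coding genes, median 0.07). Of 72 nuclear-encoded respiratory chain subunits, 30 rose and 3 fell (median 0.12). ATP5MC1, the c subunit of ATP synthase, rose by 0.73 in a higher stretch of chromosome 17 and UQCRC2 of complex III by 0.59 in that of chromosome 16, while SDHC (-0.61) fell in the lower stretch of chromosome 1. Of the 13 mitochondrially encoded mRNAs 0 were called by edgeR (0 at an unadjusted p under 0.05, with DESeq2 or with limma-voom), with a median of 0.04.

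**Figure D3:**
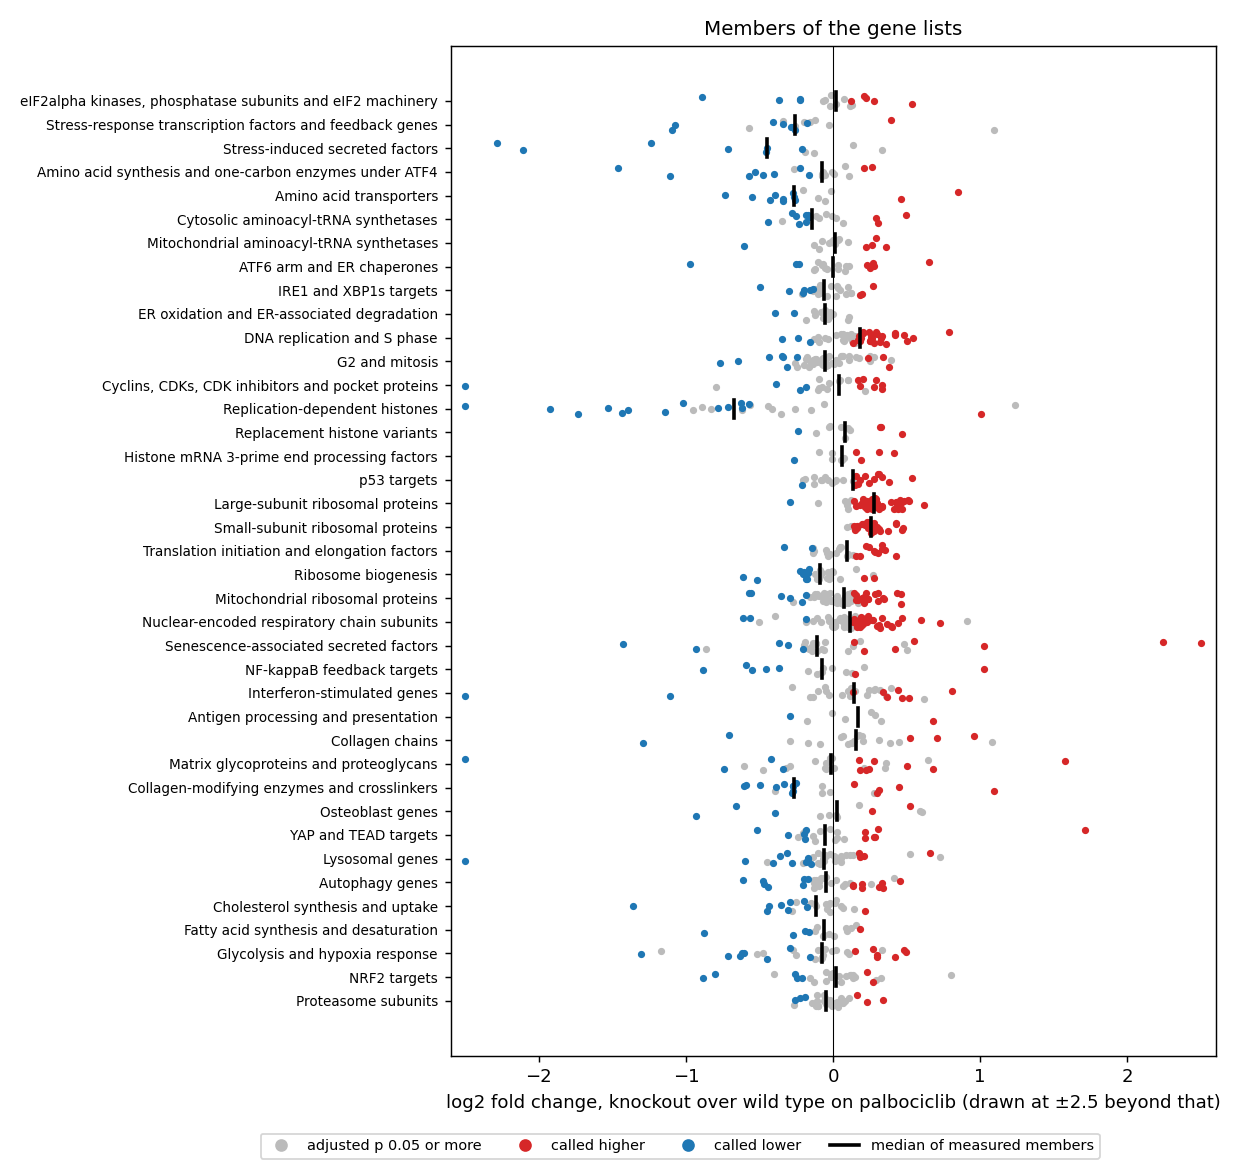
Log2 fold change of every measured member of each gene list (points; red called higher, blue called lower, grey not called), with the list median as a black bar and values past 2.5 either way drawn at 2.5. Replication genes and ribosomal proteins have most called points on the higher side, and stress-response genes and histones most on the lower side.

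Secreted and inflammatory genes changed gene by gene. Of 31 senescence-associated secreted factors, 7 rose and 5 fell, with a median of -0.11. CXCL12, a chemokine, went from 0.413, 0.404 and 0.579 CPM in the wild type to 4.17, 6.15 and 5.08 CPM in the knockout (log2 fold change 3.44 ± 0.23, edgeR adjusted p = 1.35e-09). IGFBP4, which binds insulin-like growth factors, was measured at 20.2, 19.3 and 18.6 CPM in the wild type and 94.95, 96.1 and 84.03 CPM in the knockout (log2 fold change 2.24 ± 0.08, edgeR adjusted p = 3.87e-13), in a higher stretch of chromosome 17. Every knockout library stood several times above every wild-type library for these genes. The monocyte chemokine CCL2 rose (1.03) in another higher stretch of chromosome 17, while CCL20 (-1.43) and TNFRSF11B, the decoy receptor osteoprotegerin (-0.93), fell. Of 15 feedback targets of NF-κB, 5 fell and 2 rose: the deubiquitinase TNFAIP3 (A20, -0.89), the inhibitor NFKBIE (-0.59) and NFKB1 (-0.45) fell. Of 30 interferon-stimulated genes, 7 rose and 2 fell (median 0.14), with OAS3 (0.52) and IFI6 (0.47) higher and IFI44 (-1.11) and BST2 lower. The interferon list was called less often than protein-coding genes (33.8%), at a share close to the 27.9% of all tested genes.

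Matrix genes were also mixed. Of 22 collagen chains, 3 rose and 2 fell (22.7% called, below the share of all tested genes). COL8A1 (0.96) rose, COL6A1 (0.71) and COL6A2 (0.53) rose in a higher stretch of chromosome 21, and COL16A1 (-1.29) and COL13A1 (-0.71) fell. More chains rose without wild-type library 3 (6), without knockout library 1 (8) or with the set as a block (12). Among 29 glycoproteins and proteoglycans 8 rose, including the basement membrane protein NID2 (0.68) and FBN1 (0.50), and 4 fell, including LUM (-0.74). The laminin chain LAMA4 (1.57) lost its call without wild-type library 2 (adjusted p = 0.0577), and 5 members rose without knockout library 2. Of 20 collagen-modifying enzymes, 10 fell and 5 rose, with a median of -0.26. SERPINH1 (HSP47, the collagen chaperone) was measured at 717, 781 and 803 CPM in the wild type and 449, 548 and 531 CPM in the knockout (log2 fold change -0.59 ± 0.06, edgeR adjusted p = 1.22e-06), and the lysyl hydroxylase PLOD3 had -0.49. ADAMTS2, the procollagen N-proteinase, rose (1.09).

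Metabolic and degradative genes changed in both directions. Of 40 lysosomal genes 10 fell and 4 rose (35.0% called against 33.8% of protein-coding genes, median -0.06): the protease CTSF (-0.60) fell, and CTSB was near 0 in the knockout. Of 31 autophagy genes 7 fell and 8 rose (4 rose without wild-type library 2 or knockout library 3), with MAP1LC3B (-0.44) lower and GABARAPL1 (0.46) higher. Of 24 cholesterol genes 8 fell and 1 rose (5 fell without wild-type library 1 or knockout library 3), among them DHCR7, the last enzyme of the pathway (-0.43). Of 32 glycolysis and hypoxia genes 8 fell and 7 rose, and 13 fell with the set as a block. ALDOC (-1.31) and the hexokinase HK2 (-0.62) fell, while GAPDH (0.42) rose in the higher stretch of chromosome 12. Of 26 NRF2 targets 5 fell and 2 rose (26.9% called), and 8 rose with the set as a block. SRXN1, a sulfiredoxin, was lower by 0.88 in a lower stretch of chromosome 20.

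Of 17 BCL2 family genes, 5 fell and 2 rose. BCL2, which blocks apoptosis, was measured at 9.08, 9.27 and 7.45 CPM in the wild type and 4.55, 4.996 and 5.15 CPM in the knockout (log2 fold change -0.81 ± 0.11, edgeR adjusted p = 1.06e-05), and PMAIP1 (NOXA, which promotes it) at 55.96, 56.1 and 52.5 CPM in the wild type and 30.1, 29.7 and 28.6 CPM in the knockout (log2 fold change -0.90 ± 0.05, edgeR adjusted p = 2.99e-10). Both lie in lower stretches of chromosome 18, and neither overlapped between genotypes. HRK, another promoter of apoptosis, fell by 1.15. Among the 22 genes that YAP and TEAD activate, 6 were higher and 5 lower (3 rose without knockout library 2, 3 fell without knockout library 1), with tissue factor F3 higher (1.71) and ANKRD1 lower (-0.52). Sarcolipin (SLN), an inhibitor of the ER calcium pump, rose by 1.75. Of 33 HOX genes 8 rose and none fell in the edgeR test (1 lower at an unadjusted p under 0.05, 0 with DESeq2 or limma-voom). The share called was 24.2%, below the 27.9% of all tested genes. Of the 33, 9 lie in shifted windows, and the median of 0.11 was 0.04 after subtraction of the neighbourhood. HOXB2 (1.91) in a higher stretch of chromosome 17 and HOXA13 (0.88) outside one were among the 8 that rose. A single HOX gene fell with the set as a block, with RLE size factors, with the filter at 1 CPM, and without wild-type library 3 or knockout library 1.

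Neighbouring genes moved together in several stretches of the genome. In 300 windows of 10 Mb with at least 10 tested genes, 13 had a median log2 fold change above 0.25 and 12 below -0.25, while the median absolute window median was 0.0682. Of the 1689 genes in these 25 windows 917 (54.3%) were called, against 4338 of 16560 (26.2%) elsewhere, so most calls lie outside them. The windows were picked by the fold changes of these same genes, so a higher share called inside them follows from the choice. In 20 of the 25 windows the median stayed past that limit whichever library was left out.

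The lower windows fell on chromosomes 1, 8, 10, 18 and 20. On chromosome 1, 92 tested genes from 160 to 170 Mb had a median of -0.63, with 67 of them lower, and the next 10 Mb had a median of -0.49. The window's median in the knockout libraries, relative to the wild-type mean, was -0.59, -0.63 and -0.67. COPA, a COPI coat subunit (-0.59), and PEA15 (-0.80) were among its most abundant genes. On chromosome 18 the window from 60 to 70 Mb had a median of -0.72, with 14 of 21 genes lower, and knockout libraries at -0.63, -0.63 and -0.60. On chromosome 20 the windows from 0 to 10 and from 10 to 20 Mb had medians of -0.57 and -0.59, with 64 of 85 and 28 of 38 genes lower, among them PRNP, the prion protein (-0.72), and RRBP1, a ribosome-binding ER protein (-0.71). On chromosome 8, from 10 to 30 Mb, the medians were -0.47 and -0.46, and CLU (clusterin) had -0.72.

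The higher windows fell on chromosomes 5, 10, 12, 14, 16, 17 and 21. The window from 130 to 140 Mb of chromosome 10 had a median of 0.57, with 25 of 40 genes higher, including ECHS1, a fatty acid oxidation enzyme (0.45), and TUBGCP2 (0.58). On chromosome 17 the window from 40 to 50 Mb had a median of 0.29 with 117 of 227 genes higher, and the chromosome as a whole had a median of 0.18. Chromosome 5 had 4 higher windows (0.27 to 0.32), among them that of RACK1, a ribosome scaffold protein (0.31). Just inside the limit was chromosome 16 from 20 to 30 Mb (0.25), and just outside were chromosome 2 from 120 to 130 Mb (-0.25) and chromosome 5 from 50 to 60 Mb (0.24).

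**Figure D4:**
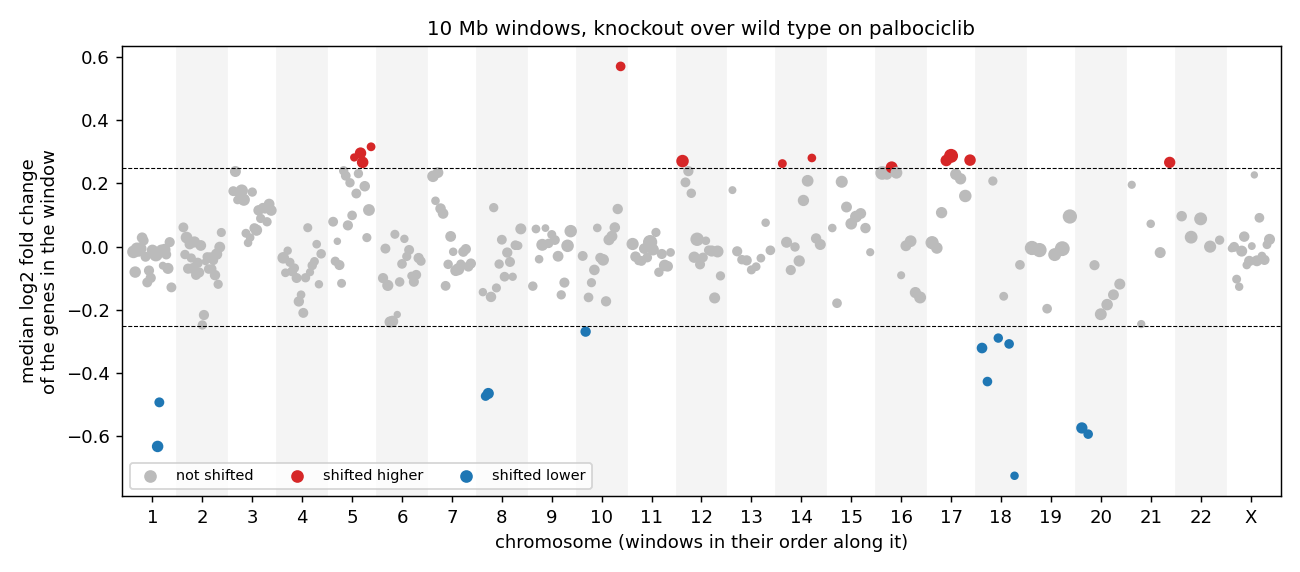
Median log2 fold change of the tested genes in each 10 Mb window (points, larger for more genes; red and blue past the dashed lines at 0.25 and -0.25), in order along each chromosome. The lower windows lie on chromosomes 1, 8, 10, 18 and 20, and the highest point, on chromosome 10, stands at 0.57.

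The pathway groups above were read beside these stretches. Of the ATF4-responsive groups, the transporters held no gene in a shifted window and the transcription factors, secreted factors and amino acid enzymes 2 each, and without those genes the medians were -0.26, -0.45 and -0.17. The replication list held 5 and kept a median of 0.18 without them. Large-subunit ribosomal proteins held 3 (median 0.27 without them), and small-subunit proteins and histones none. The respiratory chain list held 10, and its median was 0.10 without them.

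A group of single genes was close to silent in 1 genotype. By a rule chosen after the values were seen (a mean under 10% of the other genotype's, at least 1 CPM in each library of the other, and called), 25 genes, 20 of them protein coding, were near silent in the knockout and 2, CXCL12 and BEND4, in the wild type. Leaving out 1 library gave 24 to 27 and 1 or 2. BEND4 went from 0.177, 0.324 and 0.132 CPM in the wild type to 3.01, 3.87 and 3.34 CPM in the knockout.

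CTSB, the lysosomal protease cathepsin B, was measured at 38.3, 42.7 and 41.5 CPM in the wild type and 0.348, 0.5198 and 0.451 CPM in the knockout (log2 fold change -6.54 ± 0.12, edgeR adjusted p = 4.5e-19), or 1.08% of the wild-type mean. It lies in the lower stretch of chromosome 8. Of the tested genes nearest to CTSB, XKR6 (mean 0.635 to 0 CPM), FAM167A (-0.78) and FDFT1 (-1.36) were also called lower. All were under 1 CPM in the wild type, and the other nearest genes were not called. CDKN2B, at chr9:22002903-22009363, was measured at 5.78, 7.55 and 9.26 CPM in the wild type and 0.0497, 0 and 0.0237 CPM in the knockout, a total of 828 counts against 3, or a ratio of 303 with a 95% counting interval of 103 to 1470. MTAP (-0.02, adjusted p = 0.811) and DMRTA1 (0.17, adjusted p = 0.267), tested genes on either side of CDKN2B, were not called. BST2 (tetherin, an interferon-induced membrane protein) was measured at 14.3, 13.0 and 12.7 CPM in the wild type and 0.373, 0.664 and 0.617 CPM in the knockout, GTSF1, a germline piRNA pathway protein, at 18.9, 21.2 and 19.8 CPM in the wild type and 1.27, 1.76 and 1.26 CPM in the knockout, and the small heat shock protein HSPB7 at 12.8, 12.1 and 10.6 CPM in the wild type and 0.373, 0.404 and 0.308 CPM in the knockout. All knockout libraries of these genes were below 2 CPM. EMILIN1, an elastic fibre glycoprotein (-3.37), the actin-binding protein FBLIM1 (-4.00), SELENBP1 (-4.02), CD248 (-4.12) and the transcription factors GATA6 (-3.58) and ALX4 (-4.62) were near silent as well. FBLIM1 ends at position 15786594 of chromosome 1 and HSPB7 starts at 16014028, so they lie close together. Tested genes between them were not near silent. SPEN was lower by less (-0.24, from a mean of 94.5 to 80.1 CPM), and UQCRHL (0.14), SPEN-AS1 (-0.16) and ZBTB17 (-0.18) were not called.

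Zinc finger genes of chromosome 19 were in the same group. Near ZNF675, ZNF91 (-0.84) and ZNF730 (-1.315, under 1 CPM) were also called lower, while ZNF726 and ZNF254 were not called. ZNF675 was measured at 5.48, 4.69 and 5.45 CPM in the wild type and 0, 0.0578 and 0.0474 CPM in the knockout, and ZNF93 had 284 counts in the wild type and 1 in the knockout (ratio 311, 95% counting interval 55.4 to 12300). TCF15, a transcription factor gene, and TP73-AS1 had 0 counts in the knockout and were at least 57.6-fold and at least 251-fold lower, taking 3 counts over the group as the floor. TCF15 lies in a lower stretch of chromosome 20. Reads of TP73-AS1 cannot be told apart from those of genes on the other strand, since no strand setting is given in the sources used here. These intervals and floors cover counting error only.

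PAGE2B, a cancer-testis antigen gene at chrX:55075063-55078909, was measured at 80.04, 81.02 and 87.1 CPM in the wild type and 0.149, 0 and 0.261 CPM in the knockout. Its near-identical neighbour PAGE2 was higher, at 110.0, 115 and 121 CPM in the wild type and 158, 154 and 157 CPM in the knockout (log2 fold change 0.44 ± 0.06, edgeR adjusted p = 5.49e-06). Reads of such a pair can be divided between the copies by the counting, so both values are uncertain. Their sum was 190.0, 195.9 and 208.1 CPM in the wild type and 157.7, 154.4 and 157.3 CPM in the knockout, so the sum was lower in all 3 knockout libraries. PAGE5, further along the chromosome, went from a mean of 0.336 CPM in the wild type to 0 in the knockout (log2 fold change -6.70 ± 0.98). Of 24 cancer-testis genes, 11 fell and 2 rose, with a median of -0.19; at least 1 CPM in 3 libraries left 16 of them, of which 5 fell, with a median of 0.01.

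**Figure D5:**
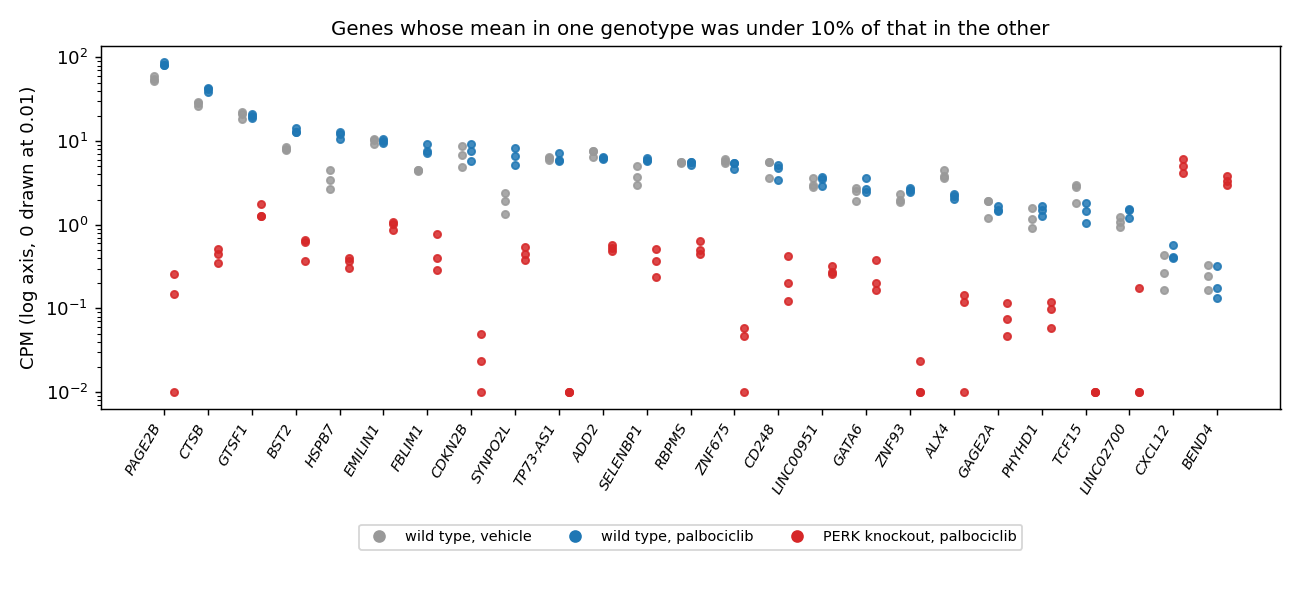
CPM in each library (log axis, 0 drawn at 0.01) of genes with a symbol that were near silent in 1 genotype on palbociclib, for the wild type on vehicle (grey), the wild type on palbociclib (blue) and the PERK knockout on palbociclib (red). The wild-type palbociclib points of CTSB, PAGE2B, BST2 and GTSF1 lie above 10 CPM and the knockout points below 2 CPM, while CXCL12 and BEND4 show the opposite order.

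The genes that moved most were ranked among called genes with at least 5 CPM in 1 genotype, no overlap and a regular symbol, which leaves out clone, LINC and pseudogene-type names. Among the 12 highest, DLX4, a homeobox gene (2.28), TUBG2, a γ-tubulin (1.98), IGFBP4 and HOXB2 lie in higher windows of chromosome 17. The others were CXCL12, SLN, F3, LAMA4, the retinol carrier RBP4 (1.48), TBX10 (1.45), GALNT15 (1.42) and COL20A1 (1.42). The 12 lowest were PAGE2B, CDKN2B, ZNF675, CTSB, HSPB7, BST2, SELENBP1, FBLIM1, SYNPO2L (-3.85), GTSF1, ADD2 (-3.55) and RBPMS (-3.38), which are all in the near-silent group. TP73-AS1, annotated as a pseudogene, and ENSG00000286393 (-4.07), which has no symbol, fell as far but lie outside that ranking.

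Cell identity and RNA quality were read from fixed marker lists. The summed level of 10 mesenchymal markers was 9566 to 10951 CPM in the wild type and 9323 to 11311 CPM in the knockout, with 2 members higher and 2 lower. Of 10 osteoblast markers 6 were measured and SP7 was at 0, with sums of 83.7 to 87.8 and 72.2 to 73.9 CPM, which did not overlap; ALPL (-0.66) and RUNX2 (-0.40) fell, the latter call being lost without any 1 of the knockout libraries. Of the epithelial markers, 5 of 8 measured fell and none rose in the edgeR test (0 higher at an unadjusted p under 0.05, with DESeq2 or with limma-voom), with sums of 875 to 928 CPM in the wild type and 562 to 586 CPM in the knockout, again without overlap. KRT8 was measured at 550.5, 581 and 589.9 CPM in the wild type and 364, 379.8 and 375 CPM in the knockout (log2 fold change -0.62 ± 0.05, edgeR adjusted p = 5.92e-09), and its partner keratin KRT18 (-0.61), the claudin CLDN4 (-0.62) and E-cadherin, CDH1 (-0.77), fell too. The call for KRT5, the other member, was lost under several alternatives (adjusted p = 0.0551 to 0.18). Endothelial markers summed to 54.8 to 61.2 and 62.1 to 64.6 CPM, higher without overlap, but only TIE1 of 8 measured was called higher. EGFL7 made up most of that sum and was not called (0.13). CDH5, too low to be tested, went the other way. Without TMM factors it was at 0.208, 0.271 and 0.238 CPM in the wild type and 0.0245, 0.0564 and 0.0235 CPM in the knockout. Haematopoietic markers summed to 1.06 to 1.25 and 1.24 to 1.55 CPM, with CD3E and HBB at 0. Among signs of handling, NEAT1, a nuclear retained RNA, was measured at 685, 534 and 849.9 CPM in the wild type and 1551, 1215 and 1625 CPM in the knockout (log2 fold change 1.09 ± 0.19, edgeR adjusted p = 0.00603). The list of nuclear retained RNAs did not rise as a whole: of 8 measured, 2 rose and 1 fell (37.5% called), with a median of 0.09. NORAD was the member that fell (-0.26), and MALAT1 was not called (0.21, edgeR adjusted p = 0.393). Of 14 immediate early genes 3 fell (21.4% called), led by NR4A1 (-0.65). Of 12 heat shock genes 2 rose and 2 fell (33.3% called). Neither the immediate early nor the heat shock list was called more often than protein-coding genes (33.8%). The part of these differences in the results above was not tested.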

How the data were processed

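Per the labels' protocols, poly(A) RNA was captured on poly-T beads and copied with random hexamer primers. The authors deposited raw read counts per gene for 9 libraries, neither normalized nor pooled. Per the submitters' processing notes, reads were handled with STAR 2.7.9a, Trim Galore, FastQC, CASAVA and DESeq2, on build hg38. Neither counter, strand setting nor annotation release is given in the sources used here, and how reads of antisense, overlapping or near-identical genes were divided cannot be checked.

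Totals ran from 33674039 to 42577874 counts. Counts were tested with edgeR 4.0.16 (quasi-likelihood, robust, TMM factors, default filter on groups; limma 3.58.1, R 4.3.3), with all 9 libraries in 1 model of 3 groups. The filter kept 19408 of 70116 gene IDs, which held 99.915% of counts. The biological coefficient of variation was 5.99%. No 2 libraries agreed within sampling noise. Python 3.11.15, pandas 2.3.3 and matplotlib 3.10.9 made the summaries and figures, and the fit was tested on simulated data. Positions came from GENCODE release 29, and promoter sequences from RefSeq tables of GRCh38.p14. Shifted stretches are 10 Mb windows with at least 10 tested genes and a median past 0.25 either way.

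The comparison, the 52 gene lists and the tests were chosen with earlier results of these data known. Named genes were a fixed core of 16, the 12 highest and 12 lowest called genes at 5 CPM or more without overlap and with a regular symbol, the called members of each list that moved most, and abundant called genes of shifted windows. List members beyond that rule, the neighbours of EIF2AK3, PAGE2 and the near-silent genes were picked once their values had been seen.

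Groups share the set numbers 1 to 3 of the labels. Deviations from group means over the 12932 genes with a mean log2 CPM above 1 correlated at 0.372, 0.254 and 0.541 between libraries of the same set and at -0.401 to 0.0714 between sets. Over all tested genes the same-set values were smaller, 0.116, 0.077 and 0.223. The numbers were taken to pair the libraries on the first of these measures alone, not from a label; on the second, 1 set lies under the limit of 0.1. The model leaves the pairing out, and a fit with the set as a block was an alternative. Other alternatives were other scaling factors, DESeq2 1.42.0, limma-voom, other filters, the 6 compared libraries alone, other window sizes, and leaving out each library. Values of 3 list members are not reported here; they remain in the counts.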

Additional observations from a re-analysis of the deposited data

How the results depend on the processing

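The direction of EIF2AK3 was the same under all alternatives run (-0.85 to -0.97). Genes called numbered 2433 to 3064 higher and 2428 to 2773 lower under other scaling factors, tools and filters, 2232 to 3047 and 2026 to 2687 with 1 library left out, and 3786 and 3282 with the replicate block. Of the 235 named genes 24 lost their call when some library was left out, and 7 did under another setting. The block ended no call of a named gene, and gave one to EIF2AK4, DDIT3, ATF3 and CDK4. Shifted windows numbered 48 at 5 Mb and 14 at 20 Mb, where window size alone changes how many can be counted, and 25 to 28 with 1 library left out. Of the 52 list medians 9 changed sign under some setting and 32 moved by more than the spread between libraries. The sign changed by more than that spread for cancer-testis genes with the filter at 1 CPM (0.0088, fewer genes) and for mesenchymal markers after subtraction of the neighbourhood (-0.017); in the other 7 lists, G2 and mitosis among them, the reported median was within 0.0574 of 0. The share of promoters with a match fell to 16.3% (CARE, stress-response genes) and 31.1% (E2F, replication genes) when only bases before the start site were searched. Of 104 counts of calls over the lists, 52 moved by over 1.5 times under some setting, 37 of them counts under 5, which reached at most 12; the cause was not tested. The others were, as reported and then over the settings, eIF2 machinery higher (5, 3 to 7), stress transcription factors lower (8, 7 to 13), IRE1 targets lower (6, 3 to 10), replication higher (31, 18 to 35), mitosis lower (7, 4 to 16), cyclins higher (7, 3 to 9), ribosome biogenesis lower (9, 4 to 10), matrix glycoproteins higher (8, 5 to 10), YAP targets higher (6, 3 to 6) and lower (5, 3 to 8), autophagy higher (8, 4 to 10), cholesterol lower (8, 5 to 11), glycolysis lower (8, 6 to 13), calcium genes higher (5, 3 to 5) and cancer-testis genes lower (11, 5 to 11). At these depths, 0 counts in a group allow up to 3.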
